A study of Drosophila melanogaster with 3 samples.

Results

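The histone variant genes of the fly examined here were His3.3A, His3.3B, His2Av and BigH1, and the question was where the protein wek bound at them and how strongly. They are 4 of 13968 protein-coding genes on the chromosome arms. They were chosen by signal values of these same data, since the promoter of His3.3A carried one of the strongest wek regions, so binding at them is described here and not tested. Regions were counted when their summit, the base of highest enrichment, lay within the gene or 2 kb of it. The pooled list held 12 such regions, of which 3 were in the authors' thresholded list. Replicates 1, 2 and 3 held 16, 5 and 15.

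The data are chromatin immunoprecipitation with sequencing (ChIP-seq) from whole Drosophila melanogaster embryos, males and females together, aged 0 to 16 hours. All embryos came from a stable transgenic line carrying wek with green fluorescent protein at its C terminus, and chromatin was sheared by sonication to 200 to 800 bp. There is 1 group of 3 biological replicates. The free-text label of each library describes an input control, while the antibody label names wek and the assay title names transcription factor ChIP-seq. They were read as wek ChIP. Embryos of no other genotype were analysed here, and the enrichment of a whole embryo does not tell in which cells or at which age wek was bound.

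Nucleosomes are made mostly during DNA replication from the histones of a repeated gene cluster. Histone variants come from separate genes that are read outside replication and are placed into chromatin by dedicated chaperones. H3.3, made by His3.3A and His3.3B, replaces H3 at active genes and regulatory elements. H2Av, made by His2Av, is the single H2A variant of the fly and does the work of both H2A.Z and H2A.X, at promoters and at DNA breaks. BigH1 is the linker histone of the germ line and the early embryo, replaced by somatic H1 as the zygotic genome becomes active. The zinc finger protein wek (weckle) carries a ZAD, a domain through which many fly zinc finger proteins pair, and acts in Toll signalling.

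The coding sequences show how near the variants are to each other and to the cluster histones. Translated from the dm6 genome, His3.3A and His3.3B gave the same protein of 136 residues from coding sequences that shared 351 of 408 bases. H3.3 differed from H3 of the cluster at 4 of 136 residues. H2Av (141 residues) matched H2A of the cluster at 79 of 143 aligned positions, and BigH1 (353 residues) matched H1 at 82 of 356. The 2 H3.3 genes therefore make 1 protein from separate promoters, and the summits of their peaks lie outside coding sequence.

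Sequences are given for stretches at the 3 peaks, next to the start sites and at the summits, because that is where wek was enriched. They were read from the RefSeq copy of dm6. Capitals mark matches to 6 words searched on both strands: TATCGATA (the DRE, bound by DREF), its core CGATA, GGTCACAC (bound by M1BP), GAGAG (bound by GAGA factor), the E-box CAGCTG, and GAATACCC, a word that came from an earlier analysis of these same peaks. CGATA lies within TATCGATA, so a match to the longer word is also one to the shorter. Stretches inside 5′ UTRs are limited to 30 bases at the summit.
His3.3A, the gap to the neighbouring gene CG14036 (dm6, chr2L:5055017-5055057, plus strand): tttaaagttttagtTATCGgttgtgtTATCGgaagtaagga
His3.3A, the summit in the 5′ UTR (chr2L:5055090-5055119, plus strand): tcaagatattgaccttatacgGAATACCCc
His2Av, the gap to the neighbouring gene ball (chr3R:26866808-26866928, plus strand): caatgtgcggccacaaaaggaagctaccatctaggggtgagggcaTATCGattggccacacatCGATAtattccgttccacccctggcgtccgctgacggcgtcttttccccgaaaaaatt
His2Av, the summit in an intron of ball (chr3R:26866656-26866775, plus strand): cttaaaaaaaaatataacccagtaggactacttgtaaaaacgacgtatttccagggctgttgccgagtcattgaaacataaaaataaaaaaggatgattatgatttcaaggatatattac
His3.3B, from the end of the peak to the first start site (chrX:9156670-9156838, minus strand): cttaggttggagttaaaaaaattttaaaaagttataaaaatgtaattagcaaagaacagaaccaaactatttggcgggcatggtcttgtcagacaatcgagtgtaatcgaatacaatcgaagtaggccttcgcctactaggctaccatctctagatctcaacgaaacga
His3.3B, the summit in the 5′ UTR (chrX:9156639-9156668, minus strand): atcattgtgaaaatttCTCTCgtccgaatt

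Peaks lay at the promoters of 3 of the 4 genes and at none of BigH1. The term peak is used here for the 3582 regions of the authors' list thresholded by the irreproducible discovery rate, per the file names. That rate asks whether regions rank alike across replicates. The list equals the 3582 pooled regions of highest signal, and 370 of them had no overlapping region in replicate 2. A single peak therefore need not be present or rank alike in every replicate. Of all coding genes, 29.3% had a peak summit in the gene or within 2 kb of it. The same 3 genes had a peak summit within 500 bp of a start site, against 15.4% of coding genes. Read against these shares, and with the genes chosen for their peaks, the count of 3 carries no weight of its own. The 3 peaks differed in strength, which is described only, since the high signal at His3.3A led to the choice of these genes. His3.3A ranked 4 by signal among the 3582 peaks, His2Av 1347 and His3.3B 3299. Signal is the authors' own value for a region, and its ranks are taken within 1 list.

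Each replicate list has 30000 regions, so its 3582 regions of highest signal were taken as its own top class. His3.3A, His3.3B and His2Av had a region of this class within 2 kb in all 3 replicates, and BigH1 in none. For His3.3B the region that counted in replicate 2 was not the promoter region but one inside the gene. The background was 29.5% of coding genes in replicate 1, 27.3% in replicate 2, 28.9% in replicate 3 and 18.5% in all of them. At a q-value of at most 0.01 the replicates held 8919, 2216 and 9834 regions, so the top class of replicate 2 reaches further into weak enrichment than that of the others. All 4 genes had some pooled region within 2 kb, as had 73.9% of coding genes.

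**Figure D1:**
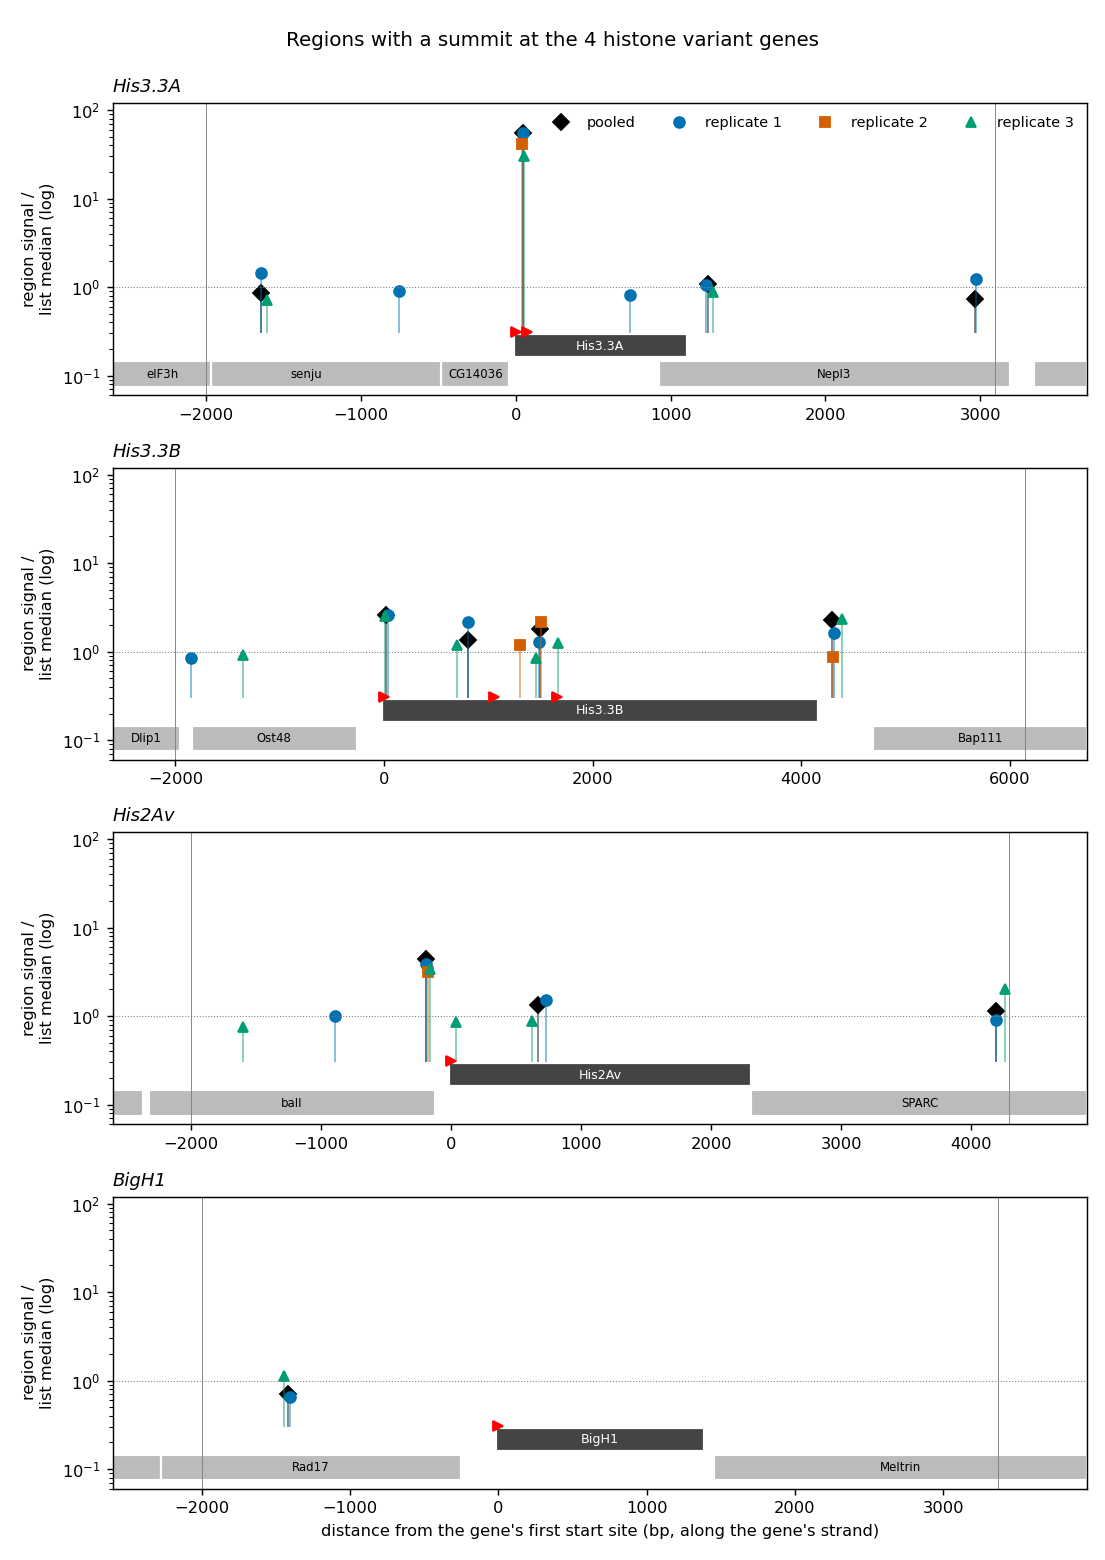
Regions with a summit within 2 kb of His3.3A, His3.3B, His2Av and BigH1 in the pooled list and in the 3 replicates. The x axis is the distance from the gene's first start site in bp along its strand, the y axis the signal of the region divided by the median signal of its list (log scale), red arrowheads are start sites, dark bars the gene, pale bars neighbouring coding genes, thin vertical lines the limits of the 2 kb window, and the dotted line the list median. The region at the His3.3A start sites stands at 30.2 to 55.4 times the list median, and no region lies in BigH1 itself.

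His3.3A, one of the pair of H3.3 genes, carried a region of nearly the highest signal in every list. The gene lies on chromosome 2L at 5055058-5056149 on the plus strand and has 3 transcripts from 2 start sites. Its peak (chr2L:5054828-5055298) had a signal of 3282 in the pooled list, 55.4 times the median of that list. The signal was 1939 in replicate 1, 805 in replicate 2 and 542 in replicate 3. These values stand 54.6, 41.1 and 30.2 times above the medians of their own lists, so the region was far from the typical region in all 3. Its ranks were 3, 6 and 6, with a mean of 5 ± 1.73 (SD, n = 3).

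The summit at His3.3A fell between its 2 start sites. It lay 47 bp downstream of the first start site, in the 5′ UTR of the longer transcript, and at −29 bp from the second start site (negative is upstream), from which 2 of the 3 transcripts begin. In the replicates the distance to the second start site was −29, −37 and −23 bp, a mean of −29.7 ± 7.02 bp (SD, n = 3). The 3 summits lay within 14 bp of each other, and each of them fell between the start sites. The region was 471 bp wide in the pooled list and 456 bp in replicate 1, where the usual widths are 370 and 380 bp, and 365 and 298 bp in replicates 2 and 3, where they are 364 and 330 bp.

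The peak at His3.3A cannot be given to that gene alone. CG14036 starts on the opposite strand with a gap of 41 bp between the genes, and the summit lay at −89 bp from its start site. No other coding start site was within 500 bp. The nearest other peaks were 2333 bp and 6309 bp away. Within 2 kb the pooled list held 3 more regions, with signals of 64.6, 50.6 and 44.0, which is 1.09, 0.855 and 0.742 times the list median. They lay in coding sequence of Nepl3 and senju, and none of them was found in replicate 2.

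Of the words searched, 4 occurred within 100 bp of the His3.3A summit. GAATACCC began 6 bp downstream of the summit, at the end of the 30 bases printed above. It was found at 2.90% of all peaks and 0.636% of the 25958 pooled regions that overlap no peak. GGTCACAC began 27 bp downstream, across the second start site, a word found at 3.77% of peaks and 1.27% of the other regions. CAGCTG began at −21 bp from the summit, against 12.1% of peaks and 11% of other regions. The core CGATA was present as a pair of reverse matches in the gap to CG14036, against 30.6% of peaks and 24.9% of other regions. The whole DRE was found at none of the 3 peaks of these genes, against 3.88% of peaks and 1.34% of other regions. A match describes the letters only, and GAATACCC was chosen on a set of peaks that includes this one.

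By the ranks in the 3 replicates, the peaks most like that of His3.3A were those nearest to CG3732, hll and Mgat1, an enzyme of N-glycan synthesis. Their summits lay at −5 bp from the start site of CG3732, −2924 bp from that of hll and −39 bp from that of Mgat1. Likeness was the Euclidean distance of the log2 ranks over 3 replicates, among 3155 other peaks with a region in each of them. The distances were 1.28, 1.54 and 1.92, and the pooled ranks 5, 6 and 3. These are the neighbours of His3.3A at the head of the list.

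**Figure D2:**
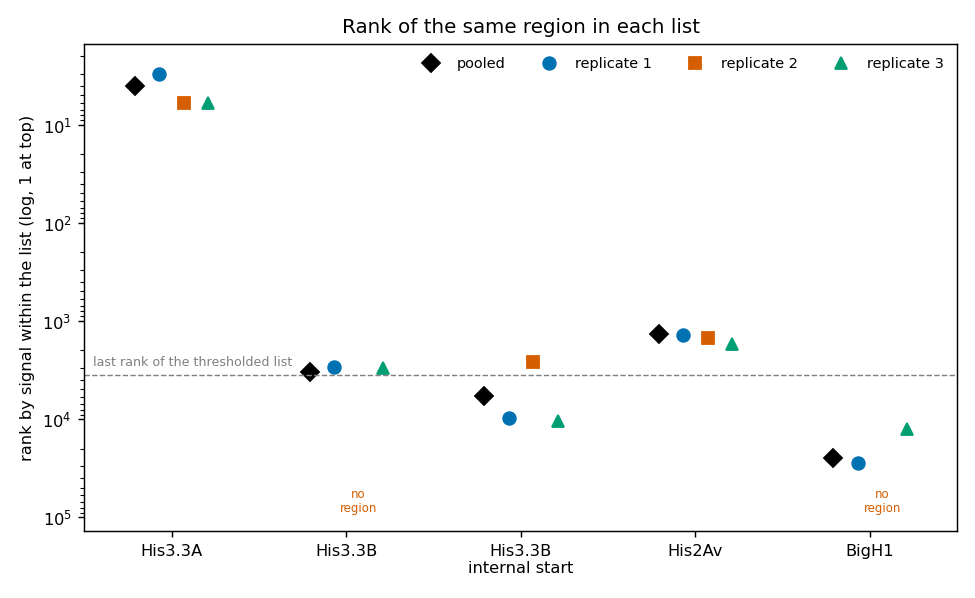
Rank by signal of the same region in the pooled list and in each replicate (log scale, rank 1 at the top), for the region of highest pooled signal at each gene and for the region before the last internal start site of His3.3B. A replicate region is the one overlapping the pooled region, the dashed line is the last rank of the thresholded list, and "no region" marks a replicate without an overlapping region. His3.3A stays between ranks 3 and 6, His2Av between 1347 and 1717, and the peak of His3.3B has no region in replicate 2.

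His2Av, the gene of the H2A variant, had a peak of middling rank that was stable across the replicates. The gene lies on chromosome 3R at 26866929-26869220 on the plus strand, with 2 transcripts from 1 start site. The peak (chr3R:26866554-26866923) had a pooled signal of 262, which is 4.42 times the list median. In replicates 1, 2 and 3 the signals were 138, 61.0 and 60.5, which are 3.88, 3.11 and 3.37 times the medians of those lists. The ranks were 1403, 1510 and 1717, a mean of 1543 ± 160 (SD, n = 3). The highest of the 3 ranks was 1.22 times the lowest, against a median ratio of 2.46 (quartiles 1.74 and 4.04) over the 3156 peaks with a region in every replicate, and 2.00 at His3.3A.

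His2Av also has a neighbour that starts head to head with it. The summit of the peak was at −190 bp from the His2Av start site, and at −194, −181 and −164 bp in the replicates (mean −180 ± 15 bp, SD, n = 3). It fell in an intron of ball, 68 bp downstream of the first of its start sites and at −114 bp from the second along the strand of ball. The gene ball encodes a kinase, also known as nucleosomal histone kinase, that phosphorylates H2A in nucleosomes. The gap between ball and His2Av is 121 bp, and the peak is nearer to the start sites of ball than to that of His2Av. The summit window held CGATA once, beginning 36 bp from the summit at the last base of the intron stretch printed above, so that this match is cut off there and not in capitals. The gap to His2Av holds 2 further matches, outside the window. None of GAATACCC, GGTCACAC, GAGAG and CAGCTG lay within 100 bp of the summit.

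The other pooled regions at His2Av lay outside the thresholded list, and their ranks changed with the replicate. A pooled region in an intron of His2Av, 665 bp downstream of its start site, ranked 9535 with a signal of 79.1, and 7578 and 18231 in replicates 1 and 3. A region in an intron of SPARC, a collagen-binding protein of the extracellular matrix, ranked 12064 in the pooled list, 17817 in replicate 1 and 4643 in replicate 3. In replicate 3 the SPARC region stood at 2.01 times the list median, with a −log10 q-value of 4.02, the highest of that list. Neither of the 2 pooled regions had an overlapping region in replicate 2, whose list held only the promoter region at this gene. Replicates 1 and 3 each also held a region in coding sequence of ball. Replicate 3 had another 37 bp downstream of the His2Av start site, of rank 19089. The peaks with the replicate ranks nearest to those of the His2Av peak were 2 overlapping peaks at CG12194 (distance 0.0888 each, since both match the same replicate regions) and 1 peak at −3973 bp from the start of the homeotic gene lab (0.150).

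His3.3B makes the same protein as His3.3A, and its strongest region ranked far lower. The gene lies on chromosome X at 9152523-9156669 on the minus strand, with 4 transcripts from 3 start sites. Its peak (chrX:9156469-9156838) had a pooled signal of 153, which is 2.59 times the list median. It was the member value nearest to the threshold from above, and the His3.3B region of rank 4137, with a signal of 134, was the nearest from below. The last peak of the list had a signal of 146.29 at rank 3582. Both H3.3 genes thus had a peak summit within 500 bp of their first start site, with pooled signals of 3282 at His3.3A and 153 at His3.3B. The peak at His3.3A is shared with CG14036 and lies nearer to the second start site of His3.3A.

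The peak of His3.3B was found in only 2 of the 3 replicates. Its signal was 91.7 in replicate 1 and 45.3 in replicate 3, or 2.58 and 2.53 times the medians of those lists, with ranks of 2969 and 3028. Replicate 2 had no overlapping region, as was the case for 370 of the 3582 peaks (10.3%). The summit lay 15 bp downstream of the first start site in the pooled list, and 37 and 9 bp downstream in replicates 1 and 3, in the first exon, which is 5′ UTR. No start site of another coding gene was within 500 bp, so unlike the other 2 peaks it is not shared. The nearest gene upstream, Ost48, a subunit of the oligosaccharyltransferase, ends 259 bp away on the same strand.

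Around this summit GAGAG was the single word present, within the 30 bases printed above on the opposite strand. It was found at 29.3% of peaks and 26.1% of other regions. Among the 367 other peaks likewise without a region in replicate 2, those nearest in rank over 2 replicates were at Svil, ND-13A and Pfrx, with distances of 0.0454, 0.0641 and 0.0798. ND-13A encodes a subunit of respiratory complex I.

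Weaker regions at His3.3B lay before its internal start sites. In the pooled list these regions lay in intron upstream of each of the 2 sites. A pooled region of rank 5877 and signal 107 (chrX:9154984-9155353) had its summit at −157 bp from the last of them. It ranked 9822 in replicate 1, 2595 in replicate 2 and 10600 in replicate 3 (mean 7672 ± 4414, SD, n = 3), with signals of 46.1, 42.6 and 22.2. In replicate 2 this was the strongest region of the gene and in the top class, although its −log10 q-value was 1.64, under the 2 that a q-value of 0.01 requires. The distances to the start site were −171, −150 and 10 bp, so the summits of the matched regions spread over 181 bp. Weaker regions also overlapped the pooled region in replicates 2 and 3, with ranks of 9534 and 19668. The weaker summit of replicate 3 lay at −196 bp.

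His3.3B, 100 bp to each side of the summit before the last internal start site (chrX:9155069-9155269, minus strand, intron), shown because replicate 2 ranked it highest at this gene: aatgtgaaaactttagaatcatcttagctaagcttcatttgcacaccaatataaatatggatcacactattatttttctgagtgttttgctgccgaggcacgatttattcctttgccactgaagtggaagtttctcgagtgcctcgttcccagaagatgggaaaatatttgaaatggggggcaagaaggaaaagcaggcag

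None of the 6 words occurs in that stretch. A further pooled region, at −251 bp from the other internal start site, ranked 9320 in the pooled list, 4067 in replicate 1 and 11221 in replicate 3, with none in replicate 2. The region of rank 4137 lay beyond the end of the gene, in intergenic sequence between the ends of His3.3B and Bap111, a subunit of the Brahma chromatin remodelling complex. Its ranks of 6759, 21055 and 3461 (mean 10425 ± 9352, SD, n = 3) spread widely, and in replicate 3 it reached the top class.

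BigH1 had no peak and no region of any list within the gene or at its start site. The gene lies on chromosome 3R at 14663450-14664822 on the plus strand, with 1 transcript. It also starts head to head with a neighbour, Rad17, a loader of the DNA damage checkpoint clamp, with a gap of 252 bp. The single pooled region within 2 kb had its summit at −1420 bp from the BigH1 start site, in coding sequence of Rad17. Its signal of 42.1 is 0.711 times the list median, with rank 25202. It ranked 27885 in replicate 1 and 12505 in replicate 3, with signals of 23.1 and 20.1, and replicate 2 had no region there. The 30000 regions of each list are the strongest only, so wek enrichment below the weakest listed signal (37.2 in the pooled list) would not appear.

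**Figure D3:**
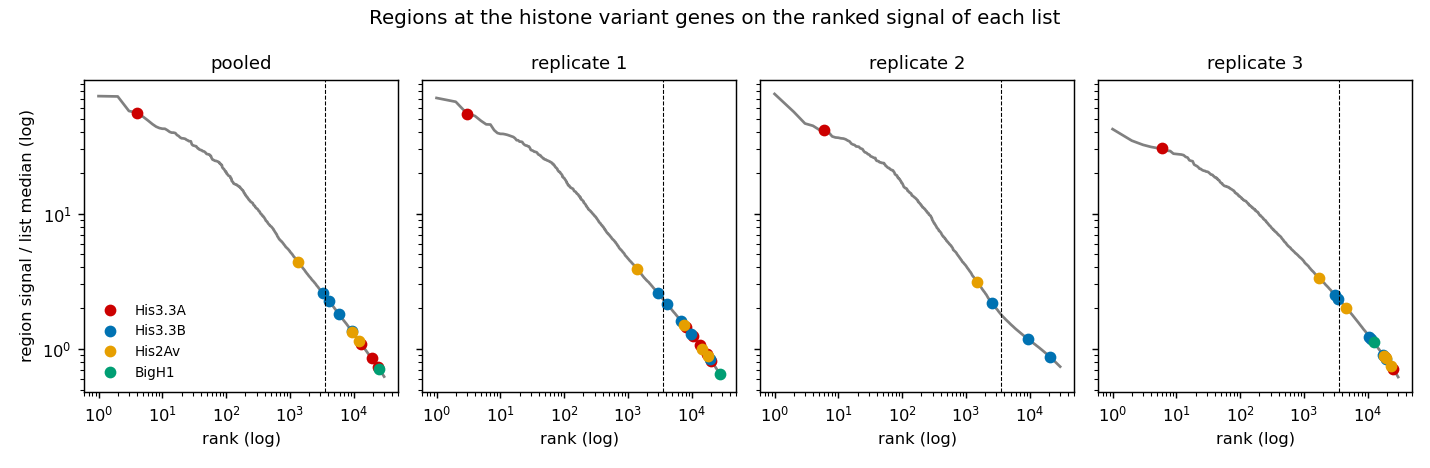
Signal of every region divided by the median of its list (y axis, log) against its rank (x axis, log) in the pooled list and the 3 replicates, drawn as grey curves, with the regions at the 4 genes as coloured points. The dashed line marks rank 3582. The His3.3A promoter is near the head of each curve, the strongest regions of His2Av and His3.3B lie before rank 3582 in every panel, and BigH1 has no point in replicate 2. For His3.3B in replicate 2 that region is the one inside the gene, since the promoter peak has no region there.

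Head-to-head arrangement is common among fly genes. His3.3A, His2Av and BigH1 have a coding neighbour starting on the opposite strand within 1000 bp, as have 36.2% of coding genes, and 23.9% of the genes so arranged had a peak at a start site. Of these 3 genes, His3.3A had a peak of rank 4, His2Av one of rank 1347 and BigH1 none. The GC content of the summit windows was 38.8% at His3.3A, 39.3% at His2Av and 37.3% at His3.3B, against a median of 40.3% over all peaks (quartiles 35.3% and 45.8%).

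Peaks at other histone genes and at genes that handle histones were counted next. A list of 47 genes, written from general knowledge, held other histones, chaperones, exchange complexes and factors of histone messenger RNA, and all 47 were matched to the annotation. Of them 3 had a peak summit within 500 bp of a start site (6.38%), against 15.4% of coding genes. In the top class of replicate 1 there were 3 of the 47 (6.38%, against 16.0% of coding genes), in that of replicate 2 there were 7 (14.9%, against 13.0%), and in that of replicate 3 there were 3 (6.38%, against 16.1%). The share was thus below the background in replicates 1 and 3 and near it in replicate 2, and the differences were not tested. None of the 47 was in all 3, against 7.87% of coding genes.

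The 3 genes were Ino80, Nasp and Daxx. Ino80, the ATPase of a remodelling complex that acts on H2A.Z nucleosomes in yeast, had a peak of rank 1243 with a signal of 275, its summit at −56 bp from the start site, shared with Aptx at −246 bp. The replicate ranks were 1375, 984 and 3647. Nasp, a chaperone of H3 in mammals, had a peak of rank 3015 with a signal of 161, at −206 bp from its start site and 83 bp downstream of that of CG9801. It ranked 3440, 18493 and 2295, so it was weak in replicate 2. Daxx, whose mammalian counterpart places H3.3 into heterochromatin, had a peak of rank 3169 with a signal of 157, but its summit lay at −453 bp from the Daxx start site and −10 bp from that of Sec61alpha, the channel of protein translocation. It ranked 3665, 883 and 733.

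The counts by role are small, stand against 15.4% of coding genes, and were not tested. By role, 2 of 7 genes of H3.3 deposition had a peak (Nasp and Daxx), as did 1 of 15 genes of H2A.V exchange (Ino80). None was found among 7 general chaperones, 8 genes of the histone locus and histone messenger RNA, 4 of sperm chromatin, 2 of replication-coupled deposition, 2 of the centromere, and cid and His4r, the genes of centromeric H3 and of a separate H4 copy. The top class of replicate 2 held 4 of the 15 H2A.V exchange genes, against 13.0% of coding genes. Of these 4, Ino80 was also in the top class of replicate 1 and none in that of replicate 3. The 3 others were dom, pont and rept, named after their values were seen, with pooled regions at their start sites of ranks 4520, 3648 and 4219, outside the thresholded list.

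The replicated histone genes held no region in any list. The cluster on chromosome 2L (21416953-21541681) spans 125 kb with 111 annotated His1, His2A, His2B, His3 and His4 genes, and 0 regions of the thresholded, pooled and replicate lists had a summit in it. Its repeats are near identical, and how reads that match several places were counted is not given in the sources used here. The absence therefore cannot be read as absence of wek, and no comparison of the variants with the cluster histones was made.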

How the data were processed

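Region lists in narrowPeak format were the starting point: 1 thresholded list, 1 pooled list and 1 list for each of 3 replicates, on dm6 per the labels. The signal of a region and the −log10 of its q-value are the authors' deposited values, and 3581 of the 3582 peaks tie at the top −log10 q-value. Ranks within a list therefore follow the signal. Per the file lists deposited with the libraries, the replicate and pooled lists were each called against 1 and the same control. Aligner, peak caller, their versions and read depth were not stated in the sources used here, so no interval that needs depth is given. All 3582 thresholded regions equalled the pooled regions of highest signal.

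Genes and start sites came from Ensembl release 115, whose assembly is dm6, and sequence from the RefSeq genome. A replicate region matched a pooled region when at least 1 bp overlapped, and the one of highest signal was taken. Distances follow the gene's strand. Python 3.11.15, numpy 2.4.6 and pandas 2.3.3 were used, with Biopython 1.88 for protein alignment. Gene assignment was tested on simulated data. The genes named are the 4 variants, genes sharing their peaks, the 3 peaks most like each in replicate rank, and list genes with a peak. Members and lists were chosen with earlier results of these data known, so no test was run.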

Additional observations from a re-analysis of the deposited data

How the results depend on the processing

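Recomputed under other settings, 58 values stayed within the replicate SD, or within 1.5 times for counts, and 15 did not. A mean rank with 1 replicate left out cannot move by more than that SD, so its place among the 58 carries no information. At BigH1 the mean rank was 12505 without replicate 1 and 27885 without replicate 3, against 20195. At His3.3B leaving out replicate 2 changed nothing, since its peak had no region there. Ranked by the −log10 q-value, where ties at the highest value share their mean rank, His3.3A, His2Av and His3.3B all had a pooled rank of 1791, with mean replicate ranks of 1893, 2128 and 2494. With overlapping regions merged, the pooled rank of His3.3B was 3247. Summits of single replicates moved the distance to the start site by more than the SD at His3.3A (−37 bp in replicate 2), His3.3B (37 bp in replicate 1) and His2Av (−164 bp in replicate 3). The genes of the wider list with a peak fell to 1 among the 1791 peaks of higher signal. Leaving out each replicate in turn gave 1 to 1, counted as genes in the top class of both remaining replicates. The word CGATA was in 1 peak rather than 2 within 50 bp of the summit. The count of members with a peak was 3 under every window, and 2 among the 1791 peaks of higher signal, where His3.3B was lost. With each replicate left out, 3 members had a top-class region within 2 kb in both remaining replicates. For His3.3B in replicate 2 that region was the one inside the gene, of rank 2595. The promoter peak of His3.3B had no region in replicate 2. No paired analysis was possible because there is 1 group only. Depth is unknown, and fewer enriched regions in replicate 2 limit what its ranks can show.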
